A study of Homo sapiens with 3 samples.

Results

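The cells described here are stromal cells of D21 chambered cardiac organoids (CCOs) that carried KDR transcripts without the endothelial genes CDH5, TIE1, ECSCR and ESAM. They were chosen by their own counts. A D21 cell was a member if it passed the filters on cells, held 3 or more unique molecular identifiers (UMIs, counted transcript molecules) of KDR and fewer than 4 of the 4 endothelial genes together, gave under 1% of its UMIs to 4 cardiomyocyte genes (TNNT2, MYH6, MYL7 and TTN), and held under 8 UMIs per 10000 of 6 genes of dividing cells. Of 1946 D21 cells kept, 72 were members, a share of 3.70% (exact 95% binomial interval 2.91 to 4.64%, which covers counting error only).

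KDR, also called VEGFR2, is the main receptor through which VEGFA acts on endothelial cells. It is also carried by mesodermal progenitors before they become endothelial, cardiac or mural cells, so KDR alone does not name a lineage. CDH5, the cadherin of endothelial junctions, TIE1, ECSCR and ESAM are kept by differentiated endothelium, while SOX17 is a transcription factor of arterial endothelium and endoderm.

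The CCOs were grown from H7 human embryonic stem cells, an established line, by cardiac differentiation with CHIR99021 followed by IWP-2. The differentiating cells, which held cardiomyocytes and other cells besides cardiovascular progenitors, were aggregated in Matrigel. They were kept until D14 in a medium with B27, thrombin, cardiotrophin-1, EGF, FGF-2, Wnt-3A and EDN1, and after that in RPMI with B27 in a spinner flask. One library of single cells each was measured at D8, D14 and D21, with no treated or untreated arm, so no difference below has a replicate and none was tested. All the groups compared at D21 are cells of the same library.

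Within this library the members were set beside 617 KDR-negative stromal cells, which held no KDR UMI and gave at least 0.2% of their UMIs to COL1A1, COL1A2 and COL3A1, and beside 36 endothelial cells with 4 or more UMIs of the 4 endothelial genes. Both groups were held to the same limits on cardiomyocyte and dividing genes. Median depth was 15676 UMIs per cell in the members, 12661 in the KDR-negative cells and 14820 in the endothelial cells, and the summed depth of the members was 1248718 UMIs. Median mitochondrial shares were 3.71%, 3.77% and 4.27%, and median doublet scores were 0.0460, 0.0384 and 0.0522. Of the kept cells, 9 barcodes were shared by D8 and D21 and 10 by D14 and D21, and none of the members' barcodes occurred in another library. Levels below are counts per 1000000 UMIs of a group's summed cells (CPM), with exact Poisson 95% intervals where given, which cover counting error and not the spread between cultures.

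KDR in the members ran from 3 to 46 UMIs per cell with a median of 6. At the threshold, 17 members held exactly 3 KDR UMIs, while 36 cells just outside it held 2 and 72 cells held 1. No UMI of the 4 endothelial genes was found in 64 members, 7 members held 1 and 1 member held 3, whereas the 36 endothelial cells held from 6 to 93. The summed KDR level was 499.7 CPM in the members, which were chosen for it, and 489 CPM in the endothelial cells, which were not and of which 26 of 36 held 3 or more KDR UMIs, so the levels are not compared. Among 265 D21 cells with AFP at 0.2% of UMIs or more, cells of hepatic type that should lack KDR, 2 had 1 KDR UMI and none had more, at a median depth of 22187 UMIs. Among 638 cells above the cardiomyocyte limit, 65 (10.2%) held a KDR UMI and 8 held 3 or more, at a median depth of 13176 UMIs. The part of free RNA in the KDR counts was not tested.

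**Figure D1:**
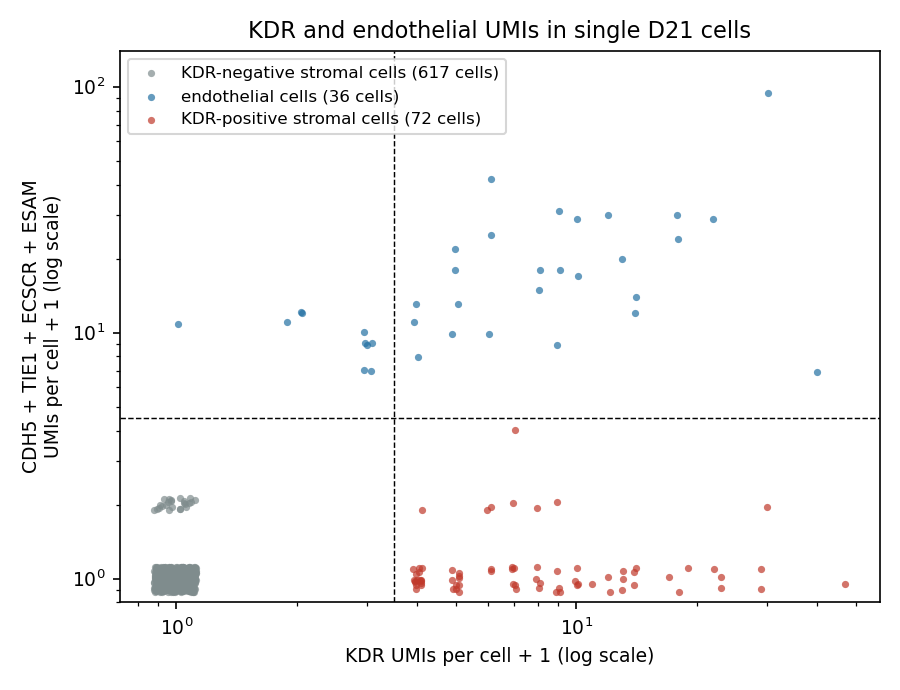
KDR UMIs per cell plus 1 against the summed UMIs of CDH5, TIE1, ECSCR and ESAM plus 1, both on log axes with a small random shift, for single D21 cells of the 3 groups, with dashed lines at the limits. The 72 KDR-positive stromal cells lie along the bottom, 64 of them without an endothelial UMI, and the 36 endothelial cells lie above 4 UMIs with 26 of them at 3 or more KDR UMIs.

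The label of stromal cells held for most members and not for all. The 12 genes of the fibroblast and stromal list that the rule did not use summed to 3528 CPM in the members. They summed to 5725 CPM in the KDR-negative and 1584 CPM in the endothelial cells. PDGFRA, a receptor of mesenchymal cells, was at 56.9 CPM in the members, 61.5 CPM in the KDR-negative cells and 5.18 CPM in the endothelial cells. PDGFRB, the receptor of fibroblasts and mural cells, was at 153 CPM in members and KDR-negative cells alike and at 3.46 CPM in the endothelial cells. The collagen minimum, which was not asked of members, was met by 60 of the 72. When D21 cells were clustered without the rule genes, 63 members lay in 4 clusters with a median collagen share of 0.3% or more (called stromal clusters below). The other 9 lay outside these, 7 of them in a cluster led by NPPA, CXCL14 and LIX1 in which all 10 cardiomyocyte markers were at least 2-fold above the other cells, and 2 in one led by ORM1, APOC3 and AHSG. These 9 cells held 1587 CPM of TNNT2, 717 CPM of AFP and 147 CPM of COL1A1, the last 2 at 268 and 49.6 CPM without the top cell of each.

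Several defining endothelial genes outside the rule were absent or nearly so. ESM1, SOX7, ROBO4 and CD34 were at 0 in all 72 members, against 497.6, 155, 79.5 and 82.9 CPM in the endothelial cells. CLDN5, the claudin of endothelial junctions, was at 7.21 CPM against 603 CPM. Of the 25 endothelial markers, 6 were at 0 in the members and 1 in the endothelial cells. The 21 of them outside the rule summed to 1722 CPM in the members, 1078 CPM in the KDR-negative cells and 6671 CPM in the endothelial cells. Per cell this sum ran from 64.8 to 5603 CPM with a median of 1485 CPM in the members, so the 2 ranges overlapped with the endothelial one of 1833 to 13883 CPM. Scrublet called 0 members as doublets and only 7 of all D21 cells, so the caller cannot be taken to have worked.

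The members were not spread evenly over the stroma. At the main resolution of 0.8, they made up 19 of 150 cells of a cluster with PLAT and NR2F1 among its leading genes (called the PLAT and NR2F1 cluster), 32 of 360 of one led by NTS, TAC1 and COLEC11, and 9 of 307 of one led by SLN, MGP and BMP4. At a finer resolution of 3, chosen after the map of cells was seen, 32 of the 72 fell into a pair of small clusters, of which they made up 46.3% and 46.4%. The first held 19 members among 41 cells, with 13 more cells carrying 1 or 2 KDR UMIs. The second held 13 members among 28 cells, with 7 more cells carrying 1 or 2 KDR UMIs and 5 of the 36 endothelial cells. At a resolution of 2 the second stood alone with 12 of its members in a cluster of 26 cells, while 17 of the first lay in a cluster of 214 cells. At 4 the first stood alone with all 19 in 40 cells, while 12 of the second lay in a cluster of 111 cells. The resolution of 3 defined both, so each was found again at only 1 of the 2 other finer settings.

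In the first of these clusters TFPI2, COL4A6, PAM, PLN, PLAT and PDGFRB were above their level in the 31 members elsewhere in the stromal clusters. Its members held a median of 10 KDR UMIs, up to 46. TFPI2, an inhibitor of serine proteases that is deposited in matrix, was at 3247 CPM and found in all 19 cells, against 992 CPM in those 31 members and 251 CPM in the KDR-negative cells. Single cells held 506 of the 1140 TFPI2 UMIs of the first cluster and 272 of the 525 of the 31 members, and without them the levels were 2020 and 503 CPM. COL4A6, a chain of basement membrane collagen, was at 288 CPM against 69.9 and 38.8 CPM in the same order. PAM, the enzyme that amidates peptide hormones, was at 664, 174 and 103 CPM, and PLN, the regulator of the sarcoplasmic calcium pump, at 1174, 289 and 235 CPM, the second value falling to 174 CPM without its top cell. PLN was also at 1423 CPM in the 9 members outside the stromal clusters, the cells with TNNT2 at 1587 CPM. PLAT, tissue plasminogen activator, was at 1250 CPM. PDGFRB was found in 18 of these 19 cells at 282 CPM, and COL1A1 in all 19 at 1239 CPM. IL24, a cytokine of the IL-10 family, was at 248 CPM from only 3 of the 19 cells, and at 131 CPM without the top one. LIF, another secreted cytokine and a name chosen after its values were seen, was at 59.8 CPM in 8 cells, with 3.001 CPM in the KDR-negative cells and 0 in the endothelial cells.

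In the second cluster EDN1, THBD, EMCN and SOX17 were above their level in the first. EDN1, the vasoconstrictor peptide endothelin 1, was at 649.8 CPM, from 10 of its 13 members, and at 8.55 CPM in the first cluster. THBD, thrombomodulin, was at 368 and 11.4 CPM, EMCN, the sialomucin endomucin, at 564 and 185 CPM, and SOX17 at 141 and 19.9 CPM. Without the top cell THBD was at 168 CPM in the second cluster, and SOX17 and EDN1 were at 6.37 and 3.19 CPM in the first. EMCN in the first cluster, found in 12 of 19 cells, was itself above the 38.1 CPM of the KDR-negative cells. Of the 15 members with any SOX17 UMI, 8 were in this cluster. Stromal genes were mixed in it. COL1A1 was at 373 CPM, PDGFRB at 25.2 CPM (5 UMIs, 16.3 CPM without the top cell) and TCF21, a fibroblast transcription factor, at 5.04 CPM, all below the first cluster. DCN, MGP and POSTN were at 217, 650 and 171 CPM, above the 51.3, 245 and 103 CPM of the first cluster. In the KDR-negative cells these 3 genes were at 197, 1725 and 325 CPM. APLNR, the apelin receptor, was at 398 CPM against 57.0 CPM in KDR-negative and 289 CPM in endothelial cells, and PRCP, a peptidase that acts on angiotensin, at 755.6 CPM against 80.6 and 625 CPM. Both were named after their values were seen. EGFL7 was found in all 13 members at 615 CPM, against 277 CPM in KDR-negative and 852 CPM in endothelial cells. HHEX was at 116 CPM against 18.1 and 128 CPM, and HAPLN1 at 277 CPM against 43.3 and 342 CPM. HAPLN1 came from 6 of the 13 members, with 34 of its 55 UMIs in 1 cell. In contrast, ESM1, SOX7, CD34 and ERG were at 0 in these 13 cells, and CLDN5 was found in 2 of them. GJA4, PLVAP and FLT1 were at 45.3, 10.1 and 35.3 CPM, against 460, 197 and 168 CPM in the endothelial cells. An endothelial UMI was present in 4 of the 13 members, against 2 of 19 in the first cluster. The median doublet scores were 0.0433 and 0.0362 and the median depths 14471 and 15824 UMIs, and the part of doublets in either cluster was not tested.

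**Figure D2:**
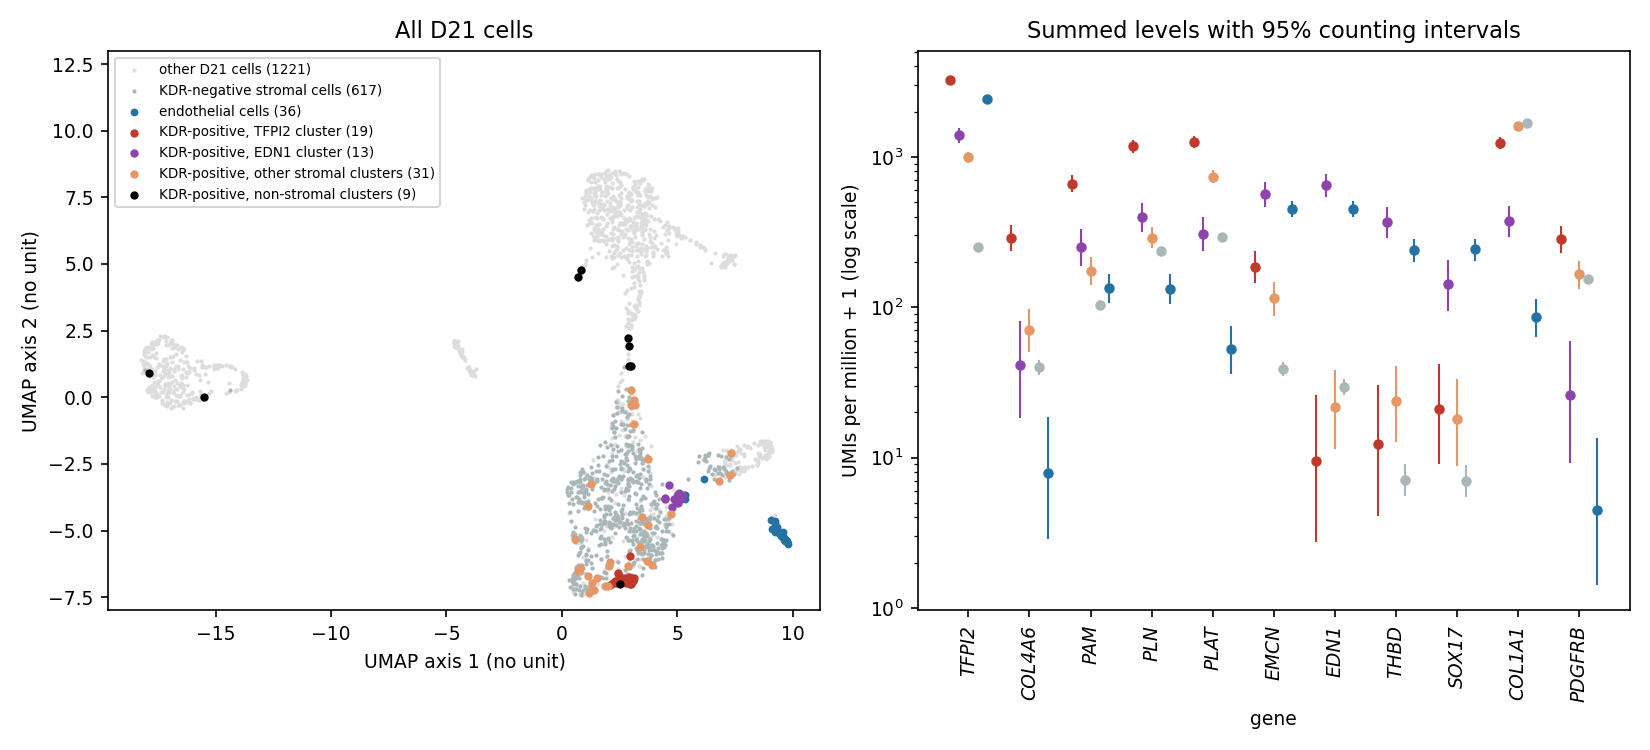
Left, UMAP positions (no unit) of all D21 cells, with KDR-negative stromal and endothelial cells and the KDR-positive stromal cells by cluster at a resolution of 3 (19 in the first cluster, called TFPI2 cluster, 13 in the second, called EDN1 cluster, 31 in other stromal clusters, 9 elsewhere). Right, summed levels plus 1 on a log axis with exact Poisson 95% intervals in the same groups without the 9 cells elsewhere, where among the groups plotted TFPI2, COL4A6, PAM, PLN and PDGFRB are highest in the first cluster and EDN1, THBD and EMCN in the second.

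SOX17, named with KDR as a marker of these cells, was found in few of them. It was at 35.2 CPM (25.6 to 47.3) in the members, 6.002 CPM in the KDR-negative cells and 242 CPM in the endothelial cells. It was seen in 15 of 72 members with at most 6 UMIs in a cell, and 9 of these 15 had no UMI of the 4 endothelial genes. The other 6 held an endothelial UMI, as did 2 of the 57 members without SOX17, so 6 of the 8 members with an endothelial UMI were cells with SOX17. After each cell was thinned to 4000 UMIs, which left out no cell of these groups, SOX17 was detected in 6.94% of members (exact interval 2.29 to 15.5%), 1.78% of KDR-negative cells, 52.8% of endothelial cells and none of the hepatic-type cells. Among the 15 members with SOX17, 13 also had EMCN, and 24 of the 57 others had it. EDN1 was at 394 CPM in the 15 and 52.3 CPM in the 57, THBD at 219 and 30.8 CPM, and GNG11, a G protein subunit abundant in endothelium, at 1476 and 462 CPM. Without the top cell THBD was at 66.9 CPM in the 15 and EDN1 at 28.1 CPM in the 57. COL1A1 was at 893 and 1162 CPM and was found in 14 of the 15. The 15 were a mix, since 8 of them lay in the second cluster, where COL1A1 was at 373 CPM and EDN1 at 649.8 CPM. The summed levels therefore do not show that the same cells held both genes at these levels.

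Against the KDR-negative stromal cells, 144 of 5866 genes compared were at least 2-fold higher in the members (2.45%) and 56 were at least 2-fold lower (0.955%). Here and below a ratio is taken with 5 CPM added to both levels, over genes at 20 CPM or more in either group, without the genes of the rule. The 15 largest ratios belonged to IL24, VGF, GPX3, STC1, THBD, TFPI2, EMCN, ITGA2, FRMD4A, TIMP3, EDN1, SPP1, PAM, GAS1 and SLC7A2. Many of the higher genes were carried by few cells. Of the 144, 13 had 50% or more of the members' UMIs in 1 cell and 46 had 25% or more, while 48 were found in 36 or more of the 72 members. With the top cell of each gene left out of each group, 70 of the 144 stayed at least 2-fold higher, and with a KDR minimum of 5 UMIs the count was 222.

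TFPI2 had the highest level among the leading genes, at 1661 CPM (1590 to 1734) in the members against 251 CPM. It was found in 57 of 72 members with a median of 4 and a maximum of 506 UMIs, and after thinning in 58.3% of members, 38.7% of KDR-negative cells and 2.26% of hepatic-type cells. The cell with 506 UMIs held 24.4% of the total, and without the top cell of each group the log2 ratio was 2.36 instead of 2.70. PAM was at 374 CPM against 103 CPM, in 63 members. TIMP3, an inhibitor of metalloproteinases bound to matrix, was at 272 CPM against 63.1 CPM, in 50 members. PLAT was at 796 CPM against 292 CPM, with a median of 10.5 UMIs. Each of these 4 genes was found in 50 or more of the 72 members.

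EMCN was at 190 CPM (166 to 216) against 38.1 CPM, in 37 members, and after thinning in 34.7% of members, 13.5% of KDR-negative cells and 0.377% of hepatic-type cells. STC1, the secreted glycoprotein stanniocalcin 1, was at 84.1 CPM against 7.32 CPM, in 28 members with at most 21 UMIs. ITGA2, an integrin chain that binds collagen, was at 63.3 CPM against 10.6 CPM, in 22 members. GAS1, a co-receptor of hedgehog ligands, was at 81.7 CPM against 20.2 CPM, in 25 members. FRMD4A, a scaffold of cell polarity, was at 102 CPM against 21.0 CPM, and SLC7A2, a carrier of cationic amino acids, at 64.9 CPM against 15.7 CPM.

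Of the other leading genes, IL24, GPX3 and SPP1 depended most on single cells. IL24, with the largest ratio (75.3 CPM against 1.44 CPM), came from 4 members, 1 of which held 46 of its 94 UMIs. THBD (72.1 against 6.12 CPM) and EDN1 (127 against 28.5 CPM) were each found in 18 members, with 43 and 39 UMIs in the highest cell. Like IL24, they stayed at least 2-fold higher in all 22 alternatives, none of which left out the second cluster. That cluster's 13 members held 73 of the 90 THBD and 129 of the 159 EDN1 UMIs. In the 31 members elsewhere in the stromal clusters THBD was at 22.7 CPM and EDN1 at 20.8 CPM. VGF, a secreted neuropeptide precursor, was at 74.5 CPM against 5.28 CPM in 20 members. GPX3, a secreted peroxidase, was at 88.1 CPM against 7.08 CPM, but 70 of its 110 UMIs were in 1 cell, and in the 63 members of the stromal clusters it was at 2.78 CPM. SPP1, osteopontin, had 56.8% of its UMIs in 1 cell and was at 51.9 CPM in those 63 members against 106 CPM in all.

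Of the 56 lower genes, 7 belonged to the list of interstitial matrix. MGP, matrix Gla protein and an antagonist of BMP signals, was at 504 CPM (465 to 545) against 1725 CPM. MFAP4, a protein of elastic microfibrils, was at 119 CPM against 467 CPM, and POSTN, periostin, at 110 CPM against 325 CPM. COL9A3, a chain of type IX collagen, was at 16.8 CPM against 133 CPM, found in 15 of 72 members and in 50.2% of KDR-negative cells. ASPN and LRRC17, small leucine-rich proteins, were at 7.21 against 51.6 CPM and 48.9 against 212 CPM. SRPX was at 76.1 against 354 CPM, PLAC9 at 12.8 against 73.4 CPM and PCOLCE, which speeds the trimming of procollagen, at 41.6 against 132 CPM. NFIB, a transcription factor, was at 114 against 309 CPM. The remaining genes named by the rule, SLN, NUPR1, MCC, PSAT1 and FAM110B, were between 11.2 and 43.2 CPM in the members and between 61.5 and 126 CPM in the KDR-negative cells.

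**Figure D3:**
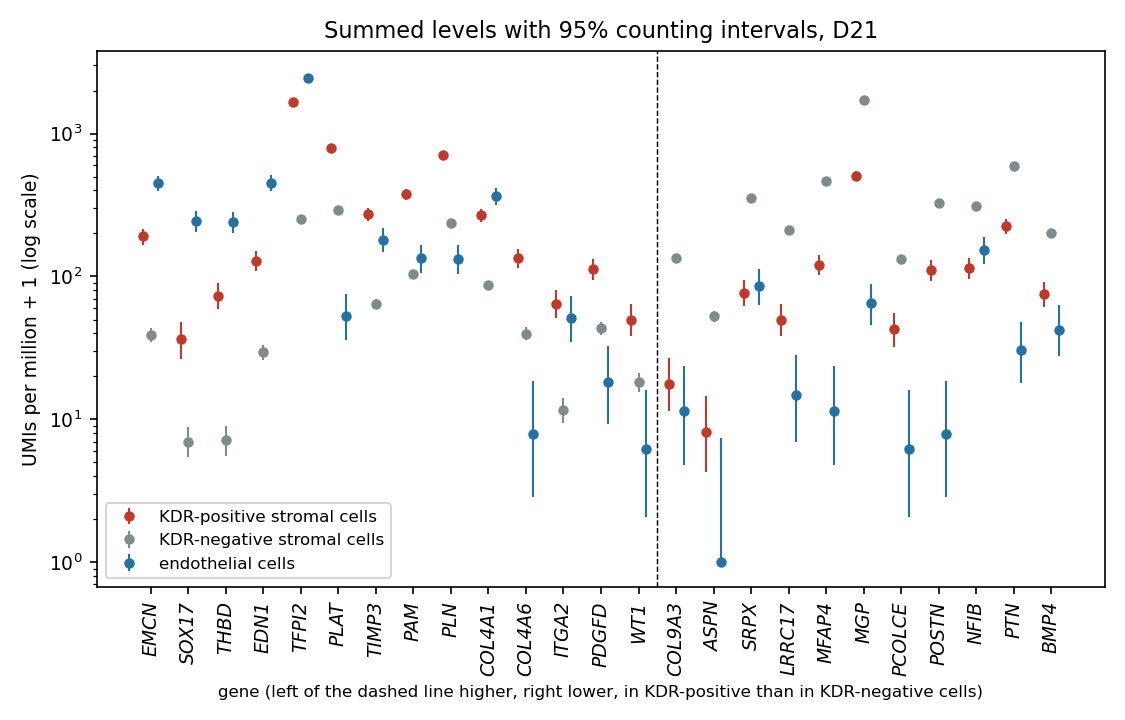
Summed levels plus 1 (UMIs per 1000000, log axis) of 25 genes in KDR-positive stromal, KDR-negative stromal and endothelial cells of D21, with exact Poisson 95% intervals. Left of the dashed line the members exceed the KDR-negative cells (TFPI2 1661 against 251 CPM), and right of it they are below them (MGP 504 against 1725 CPM).

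Many of these differences were also found between cells of one cluster. Within the NTS, TAC1 and COLEC11 cluster, with 32 members and 252 KDR-negative cells, 194 of 5658 genes were at least 2-fold higher (3.43%) and 115 at least 2-fold lower (2.03%). Of the 144 genes, 124 could be compared there and 89 were at least 2-fold higher, and of the 56 lower genes 37 of 47 were lower, with 0 and 1 at least 2-fold the opposite way. Within the PLAT and NR2F1 cluster, with 19 members and 102 KDR-negative cells, 327 of 6093 genes (5.37%) were higher and 211 (3.46%) lower, among them 63 of the 119 higher genes that could be compared and 20 of the 40 lower ones, with 1 and 0 the opposite way. The cells are part of the full comparison, so these counts are not independent of it. In both clusters 44 genes were higher, among them TFPI2, PAM, PLN, COL4A1, COL4A6, TIMP3, ITGA2, STC1, FGF7, PDGFD and SOX17, and 13 were lower, among them MFAP4, NFIB, LRRC17, COL9A3 and PCOLCE. TFPI2 was at 3810 against 264 CPM in the PLAT and NR2F1 cluster and at 1189 against 158 CPM in the NTS, TAC1 and COLEC11 cluster. EDN1 was at 6.10 against 25.2 CPM and at 213 against 16.5 CPM in the same order.

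Among the lists of pathway genes, basement membrane had the highest median ratio to the KDR-negative cells and interstitial matrix the lowest. Hypoxia and glycolysis, with a median log2 ratio of 0.50 over 11 genes compared, was nearly level with basement membrane. The median log2 ratio over all genes compared was 0.04. Of 12 basement membrane genes compared, 3 were at least 2-fold higher and none lower, with a median of 0.51. These were COL4A1 at 267 against 85.6 CPM, COL4A2 at 211 against 82.1 CPM and COL4A6 at 133 against 38.8 CPM, and they were found in 49, 59 and 47 members. COL4A5, the partner chain of COL4A6, was at 145 against 71.2 CPM, under 2-fold. The laminins LAMB1, LAMB2 and LAMC1 were at log2 ratios of 0.07, 0.09 and 0.45. Of 23 genes of the interstitial matrix list compared, 7 were at least 2-fold lower (COL14A1, POSTN, TNC, ASPN, FBLN2, MFAP4 and MGP) and 1, THBS1, was higher at 113 against 37.7 CPM, with a median of -0.61. COL1A1, which the comparison group's rule used, was at 1103 CPM against 1689 CPM. Because the collagen minimum was asked of the KDR-negative cells and not of members, those cells were chosen to be high in collagen genes. Median collagen shares were 0.31% in the members and 0.44% in the KDR-negative cells. With the minimum asked of members too, these 7 genes were still at least 2-fold lower. The part of the rule in the list's median was not tested.

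Only 4 genes of the VEGF pathway other than KDR could be compared between the stromal groups, and 0 were at least 2-fold apart. Over all genes 2.45% were at least 2-fold higher and 0.955% lower, so a count of 0 among 4 says little. Their median log2 ratio was 0.37, against 0.04 over all genes. VEGFB was at 48.1 against 32.2 CPM and VEGFA at 32.8 against 19.6 CPM. NRP1, a co-receptor, was at 54.5 against 46.1 CPM and NRP2 at 33.6 against 38.4 CPM. FLT1, the other main VEGFA receptor of endothelium, was at 14.4 CPM in the members, 9.48 CPM in the KDR-negative cells and 168 CPM in the endothelial cells. Of 10 early vascular transcription factors compared, SOX17 alone was at least 2-fold higher. LMO2, a partner of blood and vessel transcription factors, was at 135, 120 and 119 CPM in members, KDR-negative and endothelial cells.

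Growth factor genes gave single differences. Of 6 FGF, PDGF and HGF genes compared, FGF7 (55.3 against 18.1 CPM, in 28 members) and PDGFD (111 against 42.3 CPM, in 49 members) were at least 2-fold higher. Of 7 BMP and TGF-beta ligands and antagonists, BMP4 (74.5 against 199 CPM) and GDF10 (7.21 against 20.2 CPM) were at least 2-fold lower. Of 13 BMP and TGF-beta receptors and targets, 6 Notch, 10 IGF, 4 retinoic acid, 5 HOX, 11 hypoxia and glycolysis and 11 cell adhesion genes compared, 0 were at least 2-fold apart. Over all genes 2.45% were at least 2-fold higher and 0.955% lower, so counts of 0 in lists of this size say little. Hypoxia and glycolysis, with none past 2-fold, still had a median log2 ratio of 0.50. Of 11 WNT genes, only RSPO3 was, at 16.02 against 47.8 CPM, and of 5 hedgehog genes only GAS1. The guidance genes SEMA3D and SEMA3E were at least 2-fold lower among 8 compared, at 7.21 and 8.81 CPM. EDN1 was the only one of 6 endothelin and chemokine genes at 2-fold or more. In the list of neuropeptides and secreted signals, NTS was higher and PTN, pleiotrophin, lower at 223 against 593 CPM, among 10 compared. ADAMTS1, a protease that cuts versican, was higher at 146 against 59.7 CPM and ADAMTS9 lower at 33.6 against 93.04 CPM, both of the list of 7 hyaluronan and versican genes. GATA6 was lower at 20.8 against 47.2 CPM among 12 heart field genes, and the immediate early gene ZFP36 was lower at 32.8 against 75.3 CPM among 15. RUNX1, a blood transcription factor and the only gene of the blood list compared, was higher at 28.03 against 7.20 CPM.

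**Figure D4:**
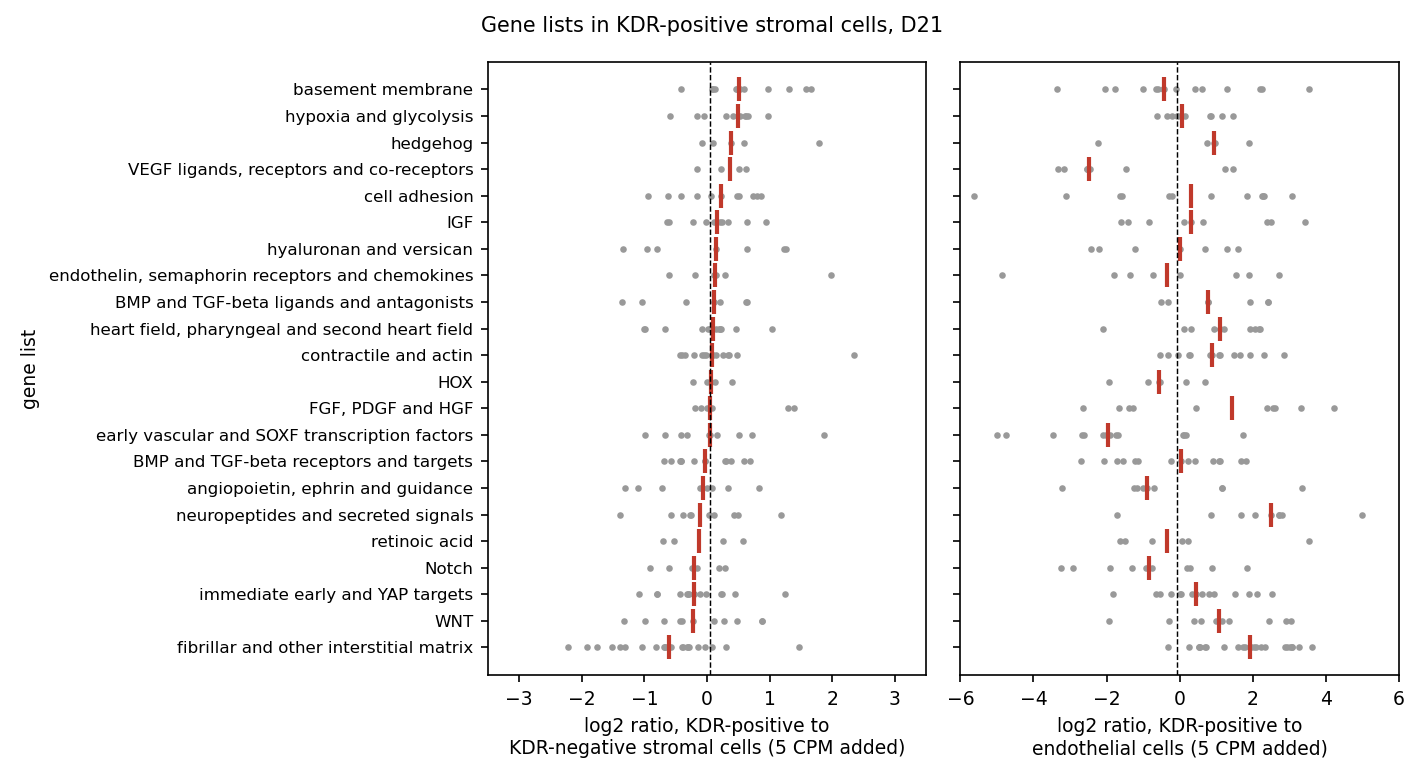
Log2 ratios of the members to KDR-negative stromal cells (left) and to endothelial cells (right), 5 CPM added, for the gene lists with 4 or more genes compared on the left. Grey points are genes, red bars the lists' medians and dashed lines the medians of all genes compared. Basement membrane is at the top on the left with a median of 0.51, just above hypoxia and glycolysis with 0.50, and interstitial matrix at the bottom with -0.61.

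Genes of mural, epicardial and heart tissue were mostly at the level of the other stromal cells. ACTA2, smooth muscle actin, was at 979 CPM against 819.5 CPM and TAGLN at 323 against 303 CPM, and MYLK, myosin light chain kinase, was the only one of 6 smooth muscle markers at 2-fold or more (46.4 against 5.16 CPM, in 15 members). CSPG4 and KCNJ8 of the same list were at 4.004 and 3.203 CPM in the members, and ABCC9 was at 0. WT1, the epicardial transcription factor, was at 48.9 CPM (37.4 to 62.8) against 17.2 CPM and in 30 members, and LRRN4, a mesothelial gene, at 21.6 against 5.52 CPM, whereas TBX18 was at 7.21 CPM and ALDH1A2 at 0. Without thinning, a UMI of WT1 or TBX18 was present in 34 of 72 members and 147 of 617 KDR-negative cells, at median depths of 15676 and 12661 UMIs. NPR3, a receptor of natriuretic peptides found in endocardium, was the only one of 5 endocardial genes at 2-fold or more, at 67.3 against 22.2 CPM. PLN, at 710 against 235 CPM, was the only one of 5 cardiomyocyte genes. The 6 cardiomyocyte markers outside the rule summed to 2444 CPM in the members and 1764 CPM in the KDR-negative cells, with medians per cell of 1693 and 1606 CPM, and in the 63 members of the stromal clusters PLN was at 597 CPM. After thinning PLN was found in 55.6% of members, 47.3% of KDR-negative, 26.4% of hepatic-type and 98.0% of cardiomyocyte-gene cells at median depths of 15676, 12661, 22187 and 13176 UMIs. NKX2-5 was at 79.3 against 36.02 CPM, and at 46.4 CPM in those 63 cells.

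Hepatic transcripts were unevenly spread over the members. All 11 hepatic markers were detected in them, summing to 3657 CPM against 2162 CPM in the KDR-negative cells, with medians per cell of 1343 and 1441 CPM. The highest member had 169530 CPM, and 3 members held 20 or more AFP UMIs. SERPINA1 was at 907 against 331 CPM, but 744 of its 1132 UMIs were in 1 member, and in the 63 members of the stromal clusters it was at 175 CPM. VTN, vitronectin, the other hepatic marker at 2-fold or more, was at 66.5 against 24.7 CPM and at 15.8 CPM in those 63 cells. The part of hepatic cells or their RNA in these values was not tested. CD44 and ANKRD1 were also at least 2-fold higher through 1 cell each, with 84.4% and 64.7% of their UMIs in it.

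Several of these genes differed by the number of KDR UMIs within the members. From KDR-negative stromal cells through cells with 1, 2, 3 to 5, 6 to 9 and 10 or more KDR UMIs, under the same endothelial, cardiomyocyte and dividing limits, PAM was at 103, 182, 164, 257, 328 and 595 CPM. TFPI2 was at 251, 554, 357, 913, 1078 and 3422 CPM over the same steps, and PLN at 235, 312, 391.7, 306, 539 and 1485 CPM. The 19 cells with 10 or more KDR UMIs held 1180 of the members' 2074 TFPI2 UMIs and 512 of their 886 PLN UMIs. Most of these 1180 TFPI2 UMIs lay in single cells with 506, 272 and 144. Without the top cell of each step TFPI2 was at 683 CPM at 6 to 9 and 2191 CPM at 10 or more KDR UMIs, and PLN at 324 CPM at 6 to 9. Most PLN at 6 to 9 came from members outside the stromal clusters, which held 97, 52 and 20 of its 225 UMIs. At 3 to 5 such members held 25, 18, 6 and 4 of 149 PLN UMIs. The PLN levels of these 2 steps are therefore not those of stromal cells alone. MFAP4 went the other way, at 467, 291, 373, 212, 62.3 and 58.0 CPM, and so did NFIB, at 309, 265, 223, 121, 125 and 89.9 CPM. SRPX and COL9A3 were already at 91.2 and 43.2 CPM in cells with 1 KDR UMI. EMCN was at 73.9 and 176 CPM in cells with 1 and 2 KDR UMIs and at 129 to 249 CPM in the members, with the step of 6 to 9 at 140.2 CPM without its top cell. The last 2 steps were split after the data were seen, median depth ran from 12661 to 17824 UMIs over the 6 steps, and the part of depth was not tested.

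**Figure D5:**
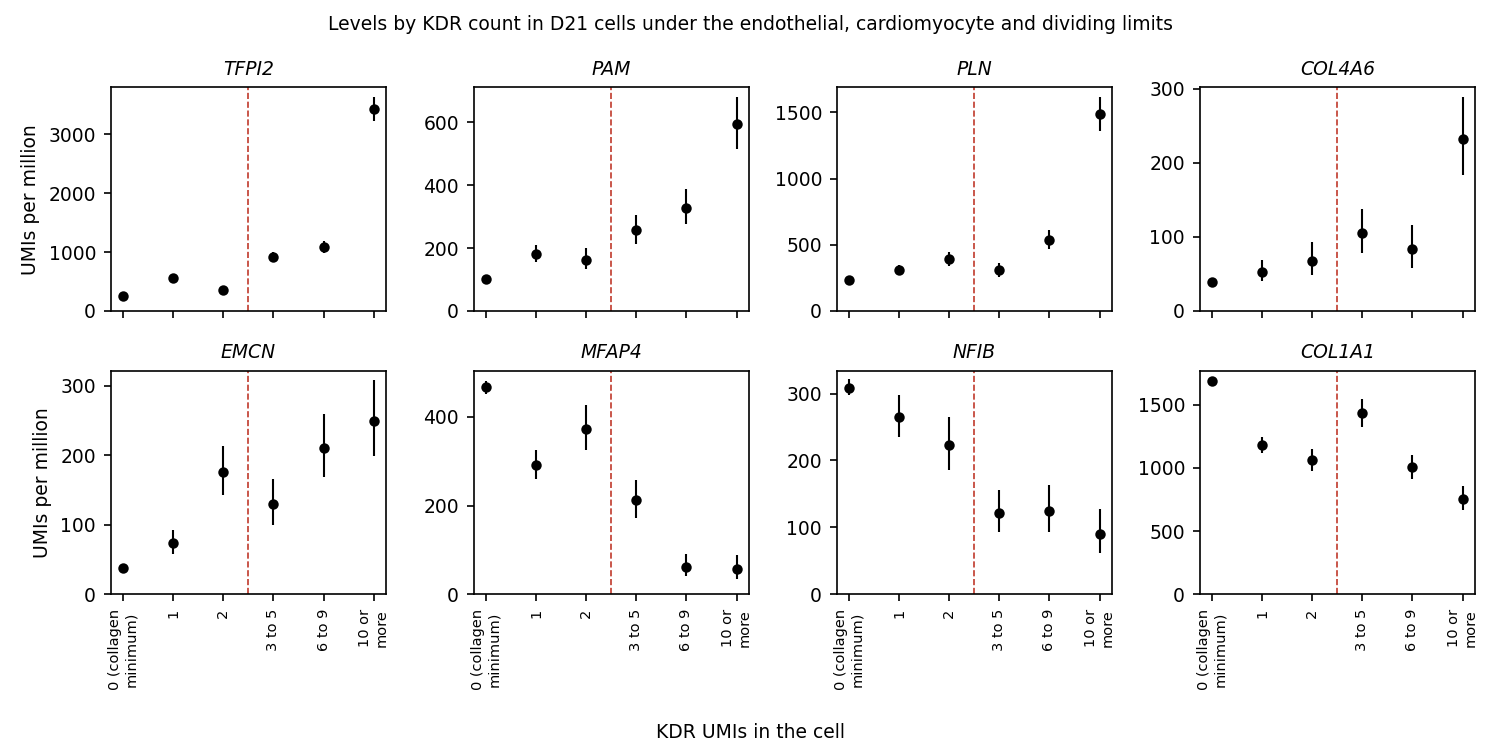
Levels of 8 genes (UMIs per 1000000, linear axes from 0, exact Poisson 95% intervals) in D21 cells by their KDR UMIs, with the dashed line at the start of the members. TFPI2, PAM, PLN and COL4A6 are highest at 10 or more KDR UMIs (TFPI2 3422 CPM), and MFAP4 and NFIB are lowest there (58.0 and 89.9 CPM).

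Against the endothelial cells, 620 of 6399 genes compared were at least 2-fold higher in the members (9.69%) and 604 at least 2-fold lower (9.44%). The higher genes included the stromal ones. COL1A1 was at 1103 against 84.7 CPM, MGP at 504 against 63.9 CPM, LUM, lumican, at 540 against 159 CPM, HGF, hepatocyte growth factor, at 114 against 6.91 CPM and CDH2, N-cadherin, at 404 against 43.2 CPM. Of 15 fibroblast and stromal markers compared, 12 were at least 2-fold higher and 1, THY1, lower. TAC1, the precursor of substance P, was at 484.5 against 10.4 CPM, PLAT at 796 against 51.8 CPM and RAMP1, a receptor activity-modifying protein, at 193 against 3.46 CPM. HSPB6 was at 115 against 1.73 CPM. G0S2, an inhibitor of lipolysis, was not seen in the endothelial cells and was at least 30.0-fold higher in the members against a floor of 3 UMIs over the group. PCDH18, IL24, VGF and DGKI were also at 0 there.

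Among the lower genes were endothelial markers. Of 19 endothelial markers compared, 16 were at least 2-fold lower in the members and none higher, counted without the rule's own genes. The rule split these groups by the 4 endothelial genes, so lower levels of markers that go with those genes follow in part from the choice of cells. ESM1 was at least 207-fold lower and SOX7 at least 64.7-fold lower, against a floor of 3 UMIs over the members. CLDN5 was 49.8-fold lower, GJA4, a connexin of arterial endothelium, was at 8.01 against 459.6 CPM (273 CPM without the top endothelial cell), and CXCR4, the receptor of CXCL12, at 3.203 against 233 CPM. CRHBP, OIT3, IL32 and TM4SF18 were at 0.801 to 4.805 CPM against 171 to 401 CPM, and LINC00305 was at least 76.9-fold lower. EMCN, EDN1, THBD, SOX17 and GNG11, all higher in the members than in KDR-negative cells, were lower than in endothelial cells, at log2 ratios of -1.22, -1.78, -1.66, -2.62 and -1.63. TFPI2, COL4A1, COL4A2, STC1, ITGA2, FRMD4A and TIMP3 were within 2-fold of the endothelial level (TFPI2 2434 CPM there, 1409 CPM without the top cell), and PAM, PLN, COL4A6, FGF7, PDGFD and WT1 were at least 2-fold above it. CXCL12 was at 505 CPM in the members and 72.6 CPM in the endothelial cells. When the endothelial group was limited to its 31 cells in the endothelial cluster, the counts were 758 and 677.

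The same rule was applied to the earlier libraries. It gave 73 of 2657 cells at D8 (2.75%, 2.16 to 3.44%), 23 of 3585 at D14 (0.642%, 0.407 to 0.961%) and 72 of 1946 at D21, with no replicate library at any time. The stromal label went against the D8 cells, of which 1 of 73 met the collagen minimum, with MGP and POSTN at 0. EMCN was at 0 and TFPI2 at 7.71 CPM in these D8 cells. At D14, 13 of 23 met the collagen minimum, and their KDR ran to 10 UMIs. Against 637 KDR-negative stromal cells of D14, 144 of 6740 genes were at least 2-fold higher (2.14%) and 153 at least 2-fold lower (2.27%). Of the 144 genes higher at D21, 82 could be compared at D14 and 11 of them were at least 2-fold higher there (13.4%), while 1 was at least 2-fold lower. Of the 56 lower genes, 4 of 37 were lower there (10.8%). EMCN was at 157 against 63.3 CPM, STC1 at 199 against 46.3 CPM and THBD at 27.1 against 4.08 CPM at D14, while MGP was at 15.1 against 202 CPM. TFPI2 was at 9.03 against 8.17 CPM and PLN at 102 against 145 CPM at D14, where neither stood out.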

How the data were processed

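Single-cell 3′ libraries of H7-derived CCOs at D8, D14 and D21 (1 per day) were sequenced by the authors with Chromium v2 chemistry. The values are raw UMI counts per gene and barcode, deposited by the authors as a merged table of 32738 genes and 17327 barcodes, made with Cell Ranger (version not given in the sources used here) and build hg19 and analysed by them in Seurat 3.2.1. The day of a barcode was read from its suffix. Cells with over 2000 and under 7500 genes and under 10% mitochondrial UMIs were kept: 2657, 3585 and 1946, with median depths of 15316, 12282 and 14106 UMIs.

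Counts were summed over cells and given as CPM. Genes at 20 CPM or more in either group and 10 UMIs or more summed over both groups were compared with 5 CPM added, and 2-fold marked a call. The comparison was tested on simulated data. Intervals are exact Poisson or Clopper-Pearson at 95% and cover counting error only. Shares of cells with a UMI were taken after thinning to 4000 UMIs where the text says so. All other counts and shares of cells with a UMI are without thinning, so they move with depth. D21 cells were clustered with Seurat 5.3.0 (2000 variable genes less the rule genes, 20 components, resolutions 0.4, 0.8 and 1.2). Scripts ran in Python 3.11.15 and R 4.3.3, TMM factors came from edgeR 4.0.16 and doublet scores from scanpy 1.11.5.

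Named genes were the members of the gene lists and cell type markers, the 15 largest ratios each way against KDR-negative and the 10 each way against endothelial cells at 50 CPM or more in the higher group, KDR, SOX17 and the genes of the rule. The members, the lists and the rules were chosen with earlier results of these data known, and the finer resolutions, the split by SOX17, the within-cluster comparisons and the levels without the top cell of a group were added after seeing the data. No sequence or coordinate is given. One leading gene of a cluster is not reported here.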

Additional observations from a re-analysis of the deposited data

How the results depend on the processing

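No paired analysis was possible because each day had 1 library and the groups were cells of the same library. Alternatives shared their cells with the values above, so they show dependence on settings only. The share of members, 3.70%, moved to 5.55% and 2.31% with a KDR minimum of 2 and 5 UMIs, to 6.03% and 2.08% with a mitochondrial limit of 5% and 20%, and to 4.73% with 1 KDR UMI after thinning. The 144 higher genes against KDR-negative cells became 89 and 222 with a KDR minimum of 2 and 5 UMIs, 63 with 20 CPM added, 45 with a filter at 100 CPM and 70 without the top cell of each gene. The 56 lower genes became 34 and 102 with a KDR minimum of 2 and 5, 89 and 28 with 1 and 20 CPM added, 98 and 15 with filters at 10 and 100 CPM, 110 with no filter on level, 88 with KDR-negative cells chosen by collagen alone and 85 without the top cell. Against endothelial cells, the 620 higher genes became 322 with 20 CPM added, 158 at 100 CPM and 989 with no filter on level, and the 604 lower ones 301 with 20 CPM added and 161 at 100 CPM. All other counts stayed within 1.5 times. Of 2489 values of named genes under alternatives, 2044 stayed close to the reported value, 431 moved and 14 changed sign. ANKRD1 fell to log2 ratios of -0.32 with the collagen minimum asked of members, -0.20 with cardiomyocyte genes under 0.5% and -0.27 without the members outside stromal clusters. CD44 was at -0.70 with the collagen minimum, -0.72 without those members and -0.42 without its top cell, and GPX3 at -0.45 with the collagen minimum and -0.63 without those members. SERPINA1 was at -0.68 with a mitochondrial limit of 5%, -0.35 without cells of 20 or more AFP UMIs and -0.90 without the members outside stromal clusters, and VTN at -0.30, -0.15 and -0.52 under the same settings in that order. NKX2-5, GDF10, TNC and GATA6 lay near the 2-fold mark and were under it in 13, 11, 10 and 9 of 22 alternatives. The settings on the top cell, mean CPM per cell, AFP, cardiomyocyte genes at 0.5% and clusters were added after seeing the data. Depth limits genes under about 2.40 CPM in the members, 5.18 CPM in the endothelial cells and 0.360 CPM in the KDR-negative cells, the levels of 3 UMIs.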
